A study of Mus musculus with 22 samples.

Results

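Fgfbp1, Ms4a10, Cpz, Cd80, Mlana, Sct and Rgs14 are 7 genes that stood much higher after depletion of the ribosomal protein gene Rpl14 in mouse embryonic stem cells and belong to none of the usual lists of p53 targets or 2C-like genes. They are the rows of those 7 symbols among 24819 genes in each of 2 tables of FPKM, a level scaled by transcript length and library size, so that genes can be compared with each other. They were chosen by their FPKM: a strong rise with siRpl14 over siNT, or the loss of that rise when siRpl11 was added. Which contrast and which libraries chose each gene is not recorded. Both differences are therefore given below as descriptions in set 1, and a rise with siRpl14 in the other libraries is no independent support. The question was which of the 7 behaved like p53 targets and which like 2C-like genes such as Zscan4d.

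RNA was sequenced from 22 libraries of the mouse embryonic stem cell line E14, taken 3 days after transfection with small interfering RNAs. All cells grew in serum medium with leukemia inhibitory factor on gelatin, and every library received either a pair of different siRNAs or siNT alone; each single knockdown was given together with siNT. The labels leave NT unexplained; siNT served here as the control. Set 1 held 2 libraries each of siRpl14, siRpl14+siRpl11, siRpl11 and siNT. Set 2, in the same table, held 1 library each of siRpl14+siDux, siRpl14, siDux and siNT. Set 3, in the other table, held 2 libraries each of siRpl14+siDux, siRpl14, siDux and siNT, and 1 each of siRpl14+siRpl11 and siRpl11. The division of the first table into sets 1 and 2 rests on the style of the titles alone. E14 is 1 cell line, and the labels do not say whether the replicates were separate cultures. Every p-value below thus reflects the spread between these libraries alone, and that spread may be technical.

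Rpl14 and Rpl11 are both components of the large subunit of the ribosome. When ribosome assembly is disturbed, free Rpl11 protein binds Mdm2, the ubiquitin ligase that marks p53 for destruction, and p53 then accumulates; Rpl11 is itself needed for this signal. Dux is a transcription factor that switches on genes of the early embryo, among them the Zscan4 cluster, and rare 2C-like cells in embryonic stem cell cultures express this program. Whether either siRNA acted only on that route in these cells was not tested.

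The 7 products have different textbook roles. Fgfbp1 is a secreted carrier that releases fibroblast growth factors from the matrix, Cpz a secreted carboxypeptidase with a frizzled-like domain, and Sct the gut hormone secretin. Cd80 is a ligand that antigen-presenting cells show to T cells, Mlana a protein of melanosomes, and Ms4a10 a membrane protein of the family that includes the B cell antigen Ms4a1. Rgs14 is an intracellular regulator of G protein signalling best known from CA2 neurons of the hippocampus. The embryonic stem cell markers Pou5f1, Nanog, Sox2, Zfp42, Esrrb, Klf4, Tdgf1 and Utf1 were above 0 in every group.

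Promoter sequences from RefSeq (GRCm38.p6) were at hand for 5 of the 7 genes, Mlana and Rgs14 being the others, and were searched on both strands from 250 bases before to 50 bases after each start. A p53 half-site, the 10-base unit of which p53 binds a pair, was present in Cpz and in the p53 target Mdm2, but not in Fgfbp1, Ms4a10, Cd80, Sct or Zscan4d. It occurred in 8.36% of 32851 promoters. The letters TATAAA were present in Fgfbp1, Cd80, Sct and Zscan4d, against 13.6% of all promoters. The Dux motif, the core of sites bound by mouse Dux, was in none of the 5 genes, in neither Mdm2 nor Zscan4d, and in 11 of the 32851 promoters (0.0335%). Such matches are descriptions and do not show binding. The 250 bases before the start are shown for the gene with the half-site, for the p53 target that shares it, and for Sct, the secreted hormone whose pattern differed most, with matches in capitals: the half-site in Cpz and Mdm2 (each also reads as one on the opposite strand) and TATAAA in Sct.
Cpz, chr5:35525627-35525876, minus strand: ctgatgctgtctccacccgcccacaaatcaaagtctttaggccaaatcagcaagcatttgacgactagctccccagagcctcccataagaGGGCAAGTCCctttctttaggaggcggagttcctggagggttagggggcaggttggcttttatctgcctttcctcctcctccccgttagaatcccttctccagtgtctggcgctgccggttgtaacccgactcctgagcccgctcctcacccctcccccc
Mdm2, chr10:117710759-117711008, minus strand: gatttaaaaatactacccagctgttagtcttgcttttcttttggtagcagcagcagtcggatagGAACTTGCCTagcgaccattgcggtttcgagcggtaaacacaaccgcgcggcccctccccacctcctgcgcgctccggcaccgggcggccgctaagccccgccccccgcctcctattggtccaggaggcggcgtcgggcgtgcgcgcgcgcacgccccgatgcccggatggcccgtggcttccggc
Sct, chr7:141279134-141279383, minus strand: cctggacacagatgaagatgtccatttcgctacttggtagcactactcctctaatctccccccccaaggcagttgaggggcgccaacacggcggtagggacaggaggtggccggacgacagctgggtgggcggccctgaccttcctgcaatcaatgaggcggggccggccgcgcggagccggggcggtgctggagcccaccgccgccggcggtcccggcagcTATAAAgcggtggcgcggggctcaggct
Counted from the start of the gene, the half-site ran from -160 to -151 in Cpz and from -186 to -177 in Mdm2, and TATAAA ran from -28 to -23 in Sct.

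The knockdowns were partial and uneven. Rpl14 stood at 60.2% and 27.1% of its siNT mean in the siRpl14 libraries of set 1, at 15.6% and 35.3% in siRpl14+siRpl11, at 34.6% in siRpl14 of set 2, and at 26.8% and 24.6% in siRpl14 of set 3. Rpl11 stood at 34.9% and 15.2% with siRpl11 alone in set 1 and at 13.2% and 33.4% in the combined knockdown. Dux was low throughout, at 0.168 FPKM with siRpl14+siDux and 1.5 FPKM with siRpl14 in set 2. No counts were at hand, so the depth of the libraries is unknown. In each library of sets 1 and 2, 30.1 to 32.1% of genes were listed at 0, against 50.5 to 56.2% in set 3. Only 4 of the 7 genes could be tested in set 3.

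Among the secreted products, Fgfbp1 changed most. Its FPKM in set 1 was 37.7 and 124 with siRpl14 and 1.26 and 1.90 with siNT. It stood at 21.3 and 6.05 FPKM in siRpl14+siRpl11 and at 4.21 and 11.8 FPKM in siRpl11. Both groups with siRpl11 lay below both siRpl14 libraries and above both siNT libraries, and they overlapped each other. In set 2 it was 131 FPKM in siRpl14+siDux, 144 FPKM in siRpl14, 2.55 FPKM in siDux and 2.70 FPKM in siNT. Adding siDux thus left it close to its siRpl14 level.

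Cpz stood at 12.6 and 15.3 FPKM in siRpl14 and at 0.457 and 0.349 FPKM in siNT. With siRpl11 added it was 2.09 and 1.74 FPKM, and with siRpl11 alone 1.06 and 1.13 FPKM. The 4 groups did not overlap, and they ran from siRpl14 through the combined knockdown and siRpl11 alone down to siNT. In set 2, Cpz was 19.0 FPKM in siRpl14+siDux, 16.1 FPKM in siRpl14, 0.468 FPKM in siDux and 0.399 FPKM in siNT.

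Sct, secretin, had another pattern. It stood at 14 and 17.6 FPKM in siRpl14 and at 2.93 and 1.42 FPKM in siNT. In siRpl14+siRpl11 it was 1.77 and 1.18 FPKM, and in siRpl11 0.951 and 0.808 FPKM. Nothing of the siRpl14 rise remained with siRpl11 added, where the values overlapped those of siNT, and both siRpl11 libraries lay below both siNT libraries. In set 2 it was 65.4 FPKM in siRpl14+siDux, 25.1 FPKM in siRpl14, 2.78 FPKM in siDux and 1.81 FPKM in siNT, so that the single library with siDux added held more Sct than siRpl14 alone.

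Of the membrane proteins, Ms4a10 had the lowest siNT level of the 7 genes in sets 1 and 2. It stood at 11.1 and 17.3 FPKM in siRpl14 and at 0.252 and 0.161 FPKM in siNT. In siRpl14+siRpl11 it was 3.25 and 2.31 FPKM and in siRpl11 1.43 and 2.12 FPKM. The 4 groups were apart, in the same order as for Cpz. Set 2 held 18.7 FPKM in siRpl14+siDux, 15.9 FPKM in siRpl14, 0.204 FPKM in siDux and 0.290 FPKM in siNT.

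Cd80 kept the largest part of its rise when siRpl11 was added. It stood at 15.1 and 40.2 FPKM in siRpl14 and at 1.32 and 1.69 FPKM in siNT. In siRpl14+siRpl11 it was 12.8 and 9.75 FPKM and in siRpl11 8.05 and 12.3 FPKM, which overlapped each other. In set 2 it was 37.8 FPKM in siRpl14+siDux, 42.2 FPKM in siRpl14, 3.72 FPKM in siDux and 3.06 FPKM in siNT.

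Mlana resembled Cd80. It stood at 18.7 and 35.6 FPKM in siRpl14 and at 2.81 and 1.38 FPKM in siNT. In siRpl14+siRpl11 it was 7.71 and 7.62 FPKM, below the 11.2 and 9.65 FPKM in siRpl11. Every library with an siRNA to a ribosomal protein gene was above both siNT libraries. Set 2 held 37.4 FPKM in siRpl14+siDux, 34.8 FPKM in siRpl14, 4.07 FPKM in siDux and 3.22 FPKM in siNT.

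Rgs14, the intracellular regulator, followed Sct in set 1. It stood at 5.33 and 7.28 FPKM in siRpl14 and at 0.792 and 0.474 FPKM in siNT. In siRpl14+siRpl11 it was 0.773 and 0.415 FPKM and in siRpl11 0.506 and 0.405 FPKM. The 3 groups other than siRpl14 overlapped. In set 2 it was 9.79 FPKM in siRpl14+siDux, 7.03 FPKM in siRpl14, 0.390 FPKM in siDux and 0.512 FPKM in siNT. In bulk RNA, more cells that express a gene and more RNA per cell cannot be told apart, here or for the other 6 genes.

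**Figure D1:**
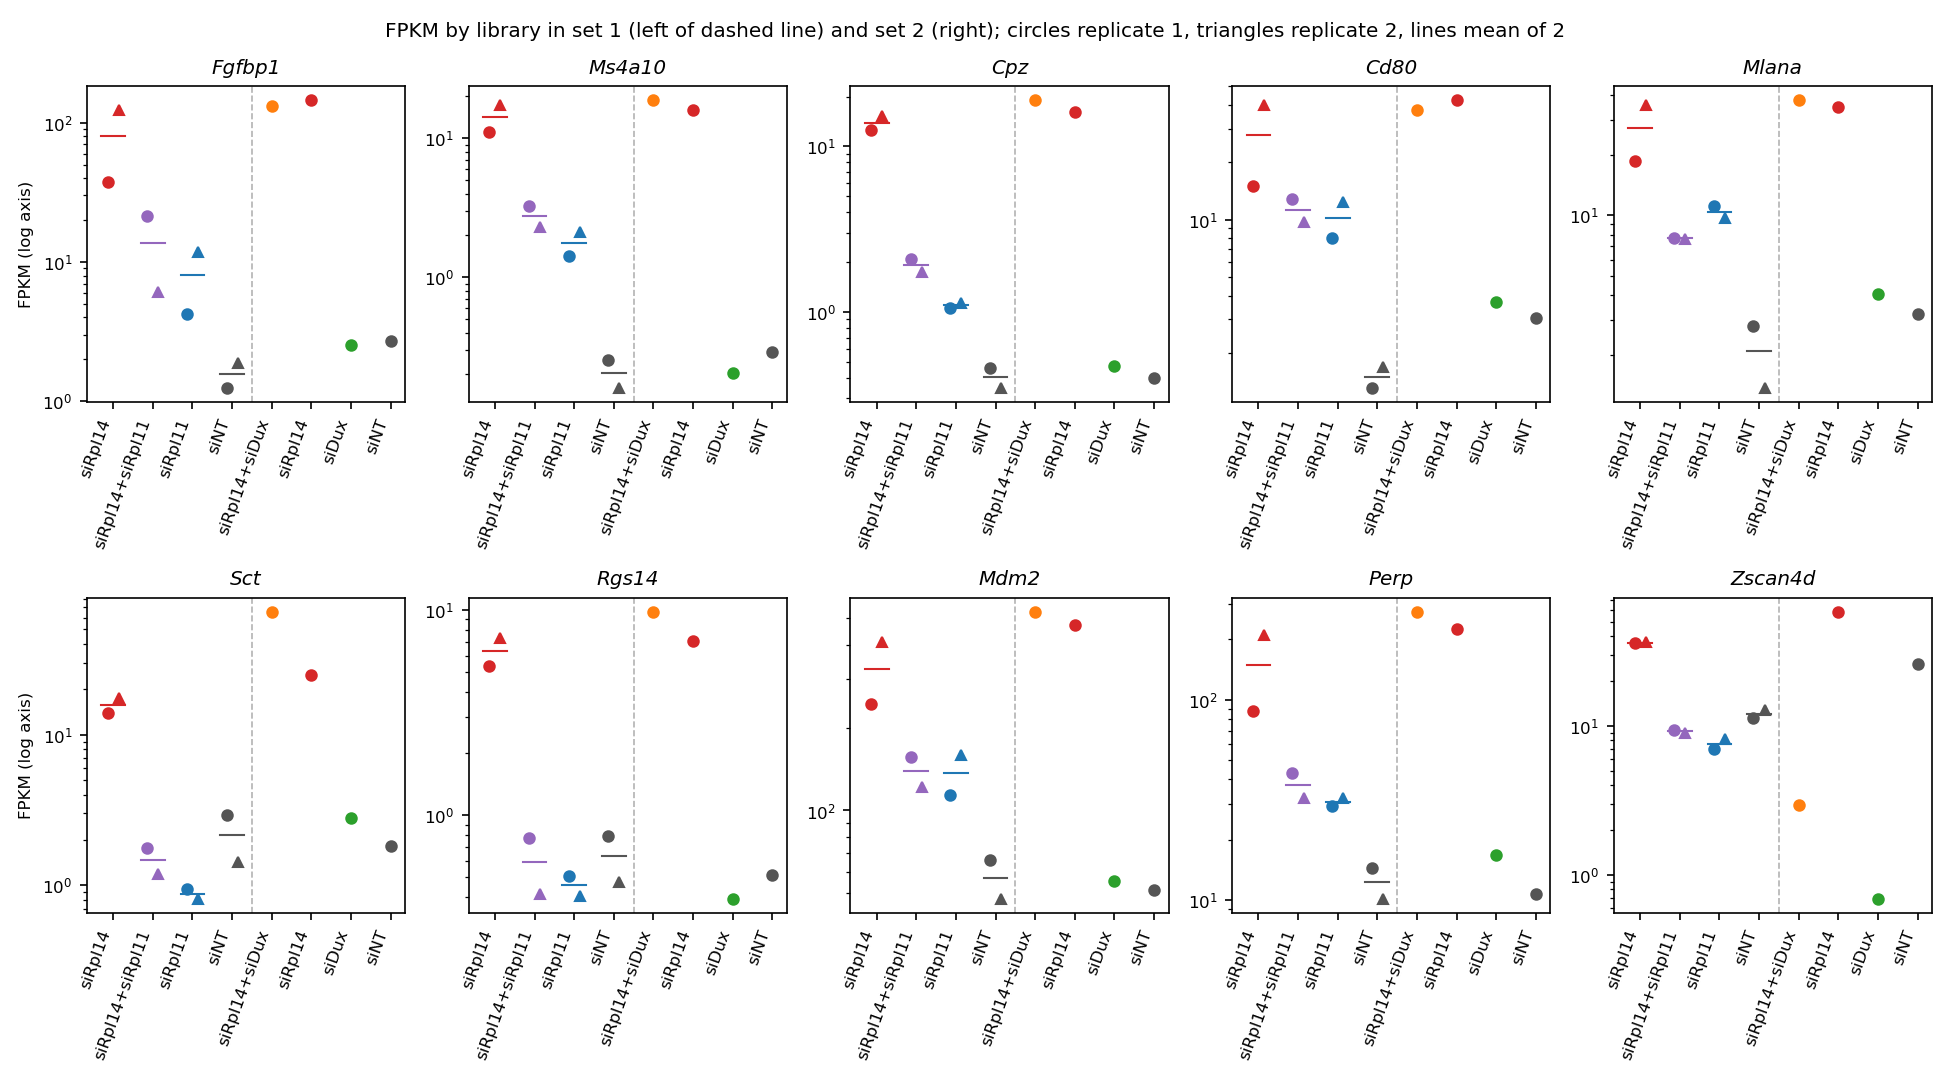
FPKM on a log axis in each library of set 1 (left of the dashed line; circles replicate 1, triangles replicate 2, lines the mean of 2) and set 2 (right; 1 library a group) for the 7 genes, the p53 targets Mdm2 and Perp, and the 2C-like gene Zscan4d. All 7 genes stay high in siRpl14+siDux, where Zscan4d is at 2.92 FPKM against 58.1 FPKM in siRpl14.

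The siRpl14 against siNT difference in set 1 is a contrast of the choice, though it may not have chosen every gene. Its log2 fold changes of FPKM + 1 were 4.76 ± 0.76 for Fgfbp1, 3.63 ± 0.23 for Ms4a10, 3.41 ± 0.15 for Cpz, 3.37 ± 0.40 for Cd80, 3.16 ± 0.30 for Mlana, 2.44 ± 0.24 for Sct and 2.16 ± 0.19 for Rgs14 (SE, n = 2 each). They held ranks 2, 4, 5, 7, 13, 38 and 63 among 12129 genes tested, of which 18.1% were higher at an adjusted p under 0.05 and 4.37% had a log2 fold change of 1 or more. For siRpl14+siRpl11 against siRpl14, the other contrast of the choice, values ran from -2.76 ± 0.24 for Sct to -1.08 ± 0.40 for Cd80, and 6.61% of genes were lower at that threshold. In both siRpl14 libraries and both combined ones the 7 genes went together: all 7 were higher in siRpl14 replicate 2, which had less Rpl14 (402 FPKM against 893 FPKM in replicate 1), and all 7 were higher in siRpl14+siRpl11 replicate 1, which had less Rpl14 (232 FPKM against 524 FPKM) and less Rpl11 (98.4 FPKM against 249 FPKM). The share of all genes that went the same way was not counted. Across 12129 genes, the differences between replicates 2 and 1 correlated at -0.49 between siRpl14 and siRpl14+siRpl11. These libraries also belong to contrasts of the choice, so the shared direction says little about the 7 genes in particular. The part of knockdown depth in these differences was not tested.

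Depleting Rpl11 alone was not a contrast of the choice, although its siNT libraries were part of one. Cd80, Mlana, Ms4a10 and Cpz rose with siRpl11, Sct fell, and Fgfbp1 and Rgs14 did not pass the test. The log2 fold changes were 2.14 ± 0.40 for Cd80 (limma, adjusted p = 0.00584), 1.92 ± 0.30 for Mlana (adjusted p = 0.0039), 1.19 ± 0.23 for Ms4a10 (adjusted p = 0.00678) and 0.58 ± 0.15 for Cpz (adjusted p = 0.0165). Sct changed by -0.71 ± 0.24 (limma, adjusted p = 0.0448). Fgfbp1 differed by 1.68 ± 0.76 (limma, adjusted p = 0.117) and Rgs14 by -0.16 ± 0.19 (adjusted p = 0.512). Rgs14 passed the filter of 1 FPKM in 2 libraries through siRpl14 alone, with 0.792 FPKM or less in the other set 1 groups. Its comparisons between those groups thus lie below the filter level and are descriptions only.

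These 4 rises and 1 fall stand against 16% of all genes higher and 28.4% lower. The calls of Cd80 and Mlana held under all 16 alternatives. That of Cpz was lost under 5 and that of Sct under 8, among them no filter, quantile normalization and median-ratio rescaling. The median log2 fold change of all genes was -0.11 here and 0.01 after quantile normalization, which also moved the share of higher among called genes to 51.5% against 36%, so the size of the Sct fall, -0.43 after quantile normalization, depends on the scaling.

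In the combined knockdown against siNT, Cd80 (2.29 ± 0.40), Ms4a10 (1.64 ± 0.23), Mlana (1.52 ± 0.30) and Cpz (1.05 ± 0.15) rose, each with a limma adjusted p of 0.00821 or less, against 16.6% of all genes higher. Quantile normalization moved the share of higher among called genes here to 51.9% against 39.8%, and for siRpl14+siRpl11 against siRpl14 to 22.9% against 8.66%. Fgfbp1 differed by 2.29 ± 0.76 (limma, adjusted p = 0.0517), Sct by -0.32 ± 0.24 (adjusted p = 0.306) and Rgs14 by -0.04 ± 0.19 (adjusted p = 0.886). The Mlana call was lost without siNT replicate 2 (1.18), and Fgfbp1 passed under 7 of 16 alternatives, among them both rescalings. Both groups here also belong to contrasts of the choice, and genes picked for low siNT values tend to rise over siNT. These calls and p-values are therefore descriptions and no independent support.

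Adding siRpl14 to siRpl11 gave no call for any gene, the knocked-down Rpl14 included (-2.06 ± 0.42, limma adjusted p = 1), so the lack of a call says little about the 7 genes. For siRpl14+siRpl11 against siRpl11, limma called 0 of 12129 genes (0%), and 387 had an unadjusted p under 0.05, among them Cpz of the 7. The log2 differences and 95% intervals were 0.48 (0.13 to 0.82) for Cpz, 0.44 (-0.09 to 0.98) for Ms4a10, 0.62 (-1.22 to 2.45) for Fgfbp1, 0.15 (-0.76 to 1.06) for Cd80, -0.39 (-1.09 to 0.30) for Mlana, 0.39 (-0.17 to 0.95) for Sct and 0.12 (-0.31 to 0.56) for Rgs14. The combined libraries belong to a contrast of the choice.

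**Figure D2:**
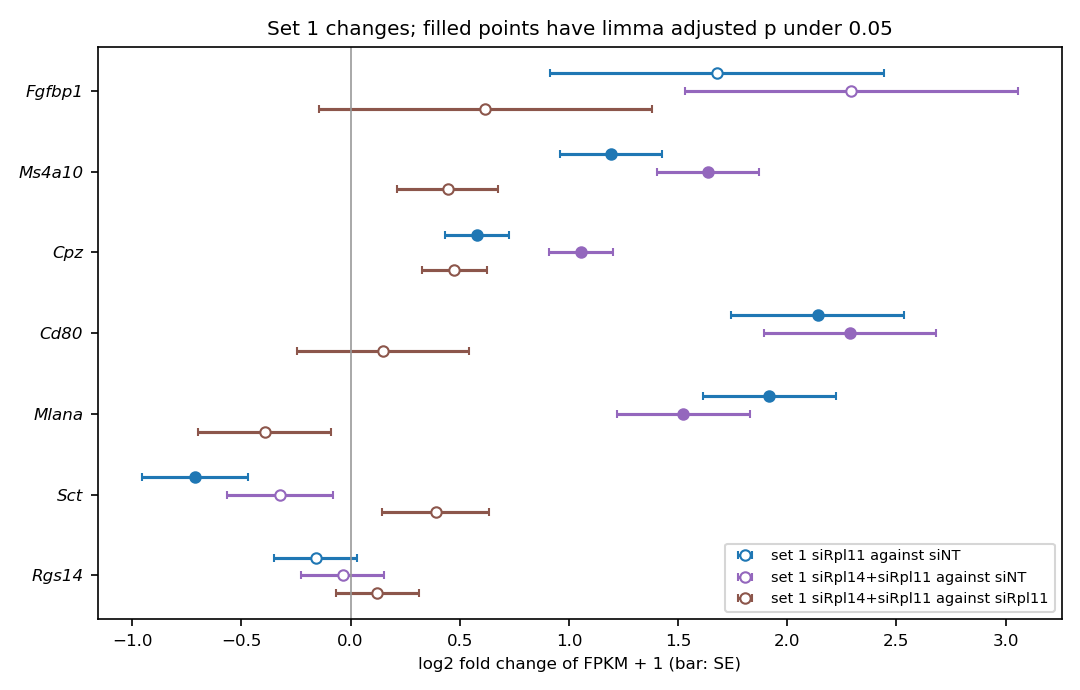
Log2 fold changes of FPKM + 1 in set 1 (horizontal axis; points are estimates, bars SE, n = 2 libraries a group) for siRpl11 against siNT, siRpl14+siRpl11 against siNT, and siRpl14+siRpl11 against siRpl11; filled points have a limma adjusted p under 0.05. Cd80, Mlana, Ms4a10 and Cpz lie right of 0 in both comparisons with siNT, Sct and Rgs14 lie at or left of it, and no point of the third comparison is filled.

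The p53 and 2C-like lists had these values in the same comparisons. Of 42 p53 targets tested in set 1, 29 rose and 3 fell with siRpl14 (median 0.87, against 0.03 over all genes), and 13 rose and 6 fell with siRpl11 (median 0.28, against -0.11). All 28 of the 2C-like genes tested rose with siRpl14 (median 1.35), and 1 rose and 6 fell with siRpl11 (median -0.14). A gene could pass the filter of 1 FPKM in 2 libraries through siRpl14 alone. Zfp352 did so, with means of 2.21 FPKM in siRpl14 and 0.401 FPKM or less in the other groups. Among the 7 genes Rgs14 did so too, as given above. The lists were also chosen with earlier results known, so the list counts with siRpl14, alone or with siRpl11 added, are descriptions. Over all genes, 18.1% rose and 13.4% fell with siRpl14, and 16% rose and 28.4% fell with siRpl11, so the falls among 2C-like genes with siRpl11 were no more frequent than among all genes. With siRpl11 added to siRpl14, 12 of 42 p53 targets fell (median -0.60) and 25 of 28 2C-like genes fell (median -1.45), against 6.61% of all genes. The p53 targets Mdm2 and Perp, a membrane protein of the apoptosis response, rose with siRpl11 by 1.25 ± 0.28 (limma, adjusted p = 0.0102) and 1.28 ± 0.36 (adjusted p = 0.0239). The death receptor gene Fas did so by 1.28 ± 0.26 (limma, adjusted p = 0.00739). Cdkn1a, the cell cycle inhibitor, did not pass with siRpl14 (0.27, limma adjusted p = 0.474) or siRpl11 (-0.47, adjusted p = 0.204). Zscan4d fell with siRpl11 by 0.60 on the log2 scale (limma, adjusted p = 0.00655) and Zscan4c by 0.42 (adjusted p = 0.0276), while Usp17lb (0.09, adjusted p = 0.616) and Zfp352 (-0.05, adjusted p = 0.811) did not pass. Both lists thus held genes that rose and genes that fell with siRpl11. The 2C-like genes ran from -0.77 to 0.34 and the p53 targets from -1.09 to 2.13. Mlana, Ms4a10 and Cpz lay above every 2C-like gene tested and within the p53 range, as did Fgfbp1 without passing its test. Cd80 (2.14) lay just above both ranges, and Sct and Rgs14 lay within both. The siNT libraries also belong to a contrast of the choice, so these positions are descriptions.

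Adding siDux moved the lists apart. In set 2, siRpl14 over siNT gave log2 differences of 2.41 (Rgs14) to 5.30 (Fgfbp1), and 6.65% of all genes were higher by 1 or more. In that set 21 of 22 2C-like genes were lower by a log2 difference of 1 or more in siRpl14+siDux than in siRpl14 (median -2.99), and 0 of 42 p53 targets were (median 0.06), against 0.402% of all genes. None of the 7 genes was lower by that much: Fgfbp1 differed by -0.13, Cd80 by -0.16, Mlana by 0.10, Ms4a10 by 0.22, Cpz by 0.22 and Rgs14 by 0.43. Sct was higher by 1.35, past a size reached upward by 0.209% of all genes. With siDux alone against siNT the 7 differed by -0.12 for Rgs14 to 0.43 for Sct, while Zscan4d differed by -4.00; 0.117% of all genes were higher and 0.293% lower by 1 or more. For siRpl14+siDux against siDux, which shares no library with siRpl14 against siNT, all 7 were higher by 2.92 (Mlana) to 5.22 (Fgfbp1), and 7.32% of all genes were higher by 1 or more. Set 2 has 1 library a group, so none of these differences has a replicate check.

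The part of the siRpl14 rise in FPKM over siNT that was left after the second siRNA puts both readouts on 1 scale. With siRpl11 added in set 1, it was 37.4% for Cd80, 22.2% for Mlana, 18.4% for Ms4a10, 15.3% for Fgfbp1, 11.2% for Cpz, -0.686% for Rgs14 and -5.11% for Sct. With siDux added in set 2, it was 88.7% for Cd80, 90.9% for Fgfbp1, 108% for Mlana, 118% for Ms4a10, 118% for Cpz, 142% for Rgs14 and 274% for Sct. The 18 p53 targets with a log2 rise of 1 or more in both sets had medians of 26.5% with siRpl11 and 110% with siDux, and the 17 such 2C-like genes had medians of 3.81% and -23.2%.

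For siDux, Fgfbp1, Mlana, Ms4a10, Cpz and Rgs14 lay within the range of the p53 targets (90.3 to 208%), Cd80 just below it and Sct above it, and all 7 lay above the highest 2C-like gene, -12.9%. These values rest on 1 library a group. For siRpl11, Sct and Rgs14 lay within the range of the 2C-like genes (-11.9 to 21.4%), but so did Cpz, Fgfbp1 and Ms4a10, and the p53 targets themselves ran from -25.4 to 71.6%. Sfn, a p53 target of the 14-3-3 family that was picked out after its values were seen, had the same combination as Sct, with -25.4% left with siRpl11 and 208% with siDux. The siRpl11 readout alone did not separate the lists gene by gene.

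**Figure D3:**
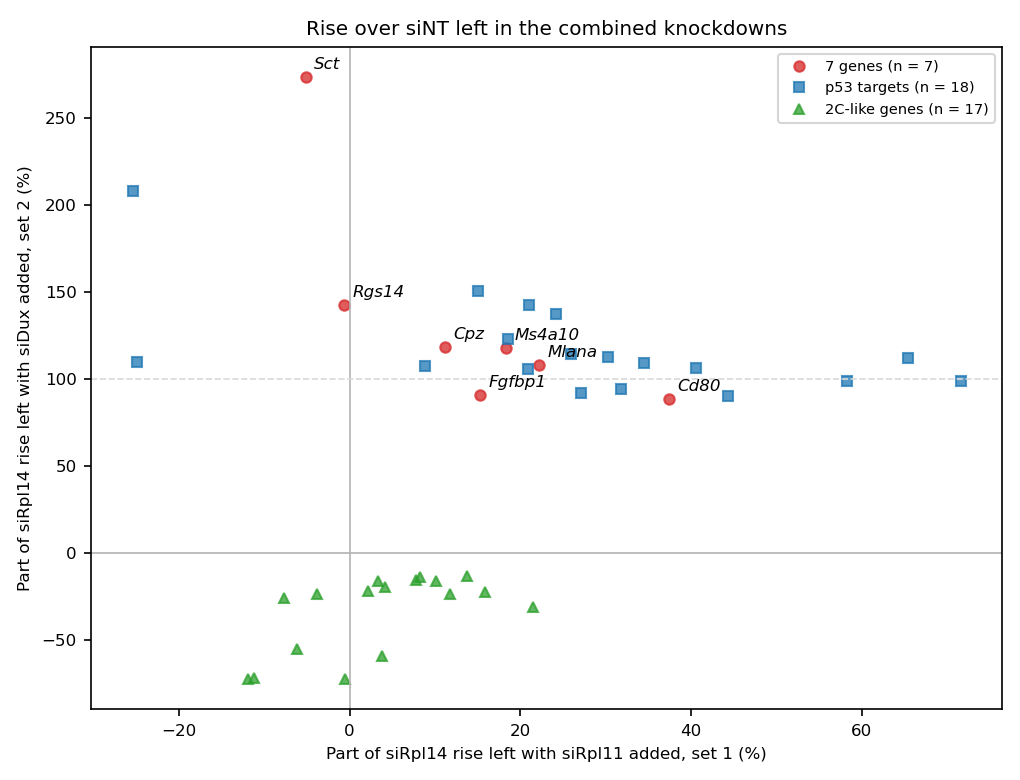
Part of the siRpl14 rise over siNT left with siRpl11 added in set 1 (horizontal axis, %) against the part left with siDux added in set 2 (vertical axis, %), 1 point a gene; the dashed line marks 100%. On the vertical axis Cd80 (88.7%) lies just below the 18 p53 targets (90.3 to 208%), Sct (274%) above them and the other 5 genes within their range, while the 17 2C-like genes lie below 0.

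The ratio of siRpl14 replicate 2 to replicate 1 in set 1 was 3.28 for Fgfbp1, 2.66 for Cd80, 1.90 for Mlana, 1.56 for Ms4a10, 1.37 for Rgs14, 1.26 for Sct and 1.22 for Cpz. It was 1.28 to 2.41 over the 18 p53 targets and 0.337 to 1.16 over the 17 2C-like genes. These ratios rest on 1 pair of libraries, whose values may have chosen the genes, and place none of the 7 with either list.

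Across the 12 libraries of sets 1 and 2, which share treatments and a table, the Pearson correlation of log2(FPKM + 1) with the mean of the p53 targets was 0.893 (Sct) to 0.973 (Ms4a10), and with the mean of the 2C-like genes 0.387 (Sct) to 0.558 (Cpz). With Zscan4d itself it was 0.242 (Sct) to 0.407 (Cpz), and with Mdm2 0.805 (Sct) to 0.982 (Ms4a10). In the 8 libraries of set 1 alone, which have no siDux, the p53 and 2C-like means themselves correlated at 0.848, and the order changed for 3 genes. Sct had 0.848 with the p53 mean and 0.982 with the 2C-like mean, Rgs14 had 0.903 and 0.982, and Cpz had 0.944 and 0.945. Fgfbp1, Ms4a10, Cd80 and Mlana stayed closer to the p53 mean. These correlations contain the siRpl14 rise and its loss with siRpl11, by which the genes were chosen, and carry no test.

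**Figure D4:**
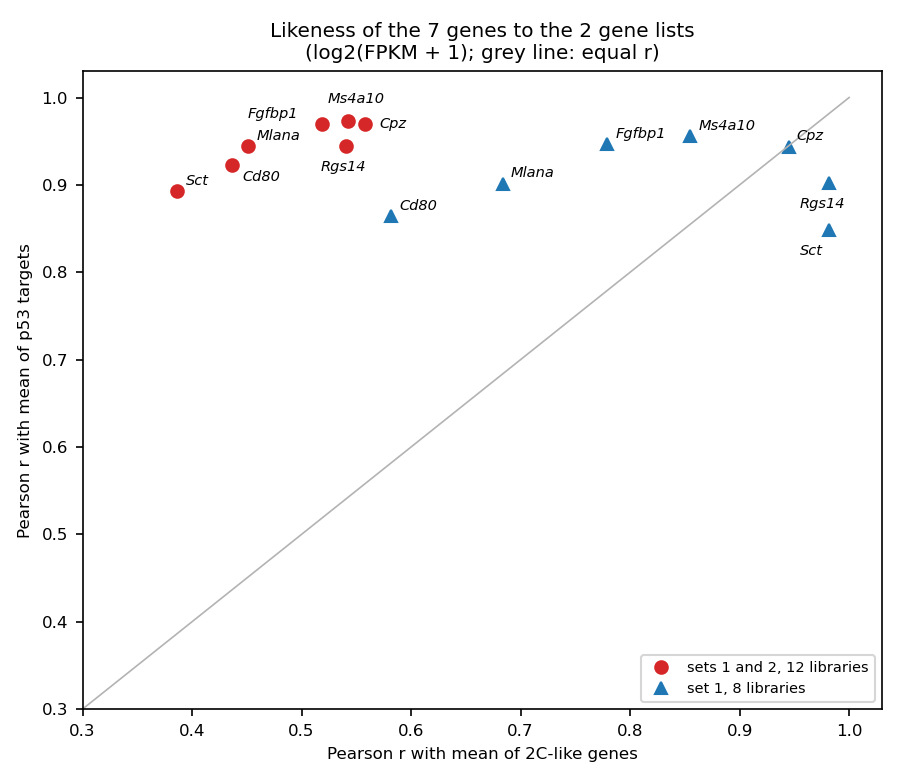
Pearson r of log2(FPKM + 1) of each of the 7 genes with the mean of the 2C-like genes (horizontal axis) and of the p53 targets (vertical axis), over the 12 libraries of sets 1 and 2 (circles) and the 8 libraries of set 1 (triangles); the grey line marks equal r. All 7 circles lie above the line, while the triangles of Sct and Rgs14 lie below it and that of Cpz lies on it.

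In set 3 only Fgfbp1, Cd80, Rgs14 and Cpz passed the filter of 1 FPKM in at least 2 libraries, and Ms4a10, Sct and Mlana were each above 0 in only 1 of 10 libraries. Fgfbp1 stood at 57.5 and 43.0 FPKM in siRpl14+siDux, 34.9 and 45.2 FPKM in siRpl14, 0 and 0 in siDux and 3.78 and 0 FPKM in siNT. Every library with siRpl14 and no siRpl11 was above every siDux and siNT library. The single libraries held 2.59 FPKM in siRpl14+siRpl11 and 10.3 FPKM in siRpl11.

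Cd80 stood at 20.8 and 18.3 FPKM in siRpl14+siDux, 19.5 and 15.1 FPKM in siRpl14, 4.42 and 10.8 FPKM in siDux and 6 and 9.02 FPKM in siNT, with no overlap between libraries with and without siRpl14 in these 4 groups. Here the siRpl14+siRpl11 library, at 19.3 FPKM, was as high as siRpl14, and siRpl11 was at 8.68 FPKM. Rgs14 stood at 2.12 and 2.23 FPKM in siRpl14+siDux, 3.85 and 1.56 FPKM in siRpl14 and 1.44 and 2.17 FPKM in siDux, and was listed at 0 in siRpl14+siRpl11, siRpl11 and both siNT libraries. Unlike in set 2, its siDux libraries were above its siNT libraries, but these values lie near the floor of set 3. The lowest 10% of values above 0 ended at 1.08 to 1.60 FPKM by library in set 3, against 0.0538 to 0.0821 FPKM in sets 1 and 2. The difference between the sets can therefore not be read as a change with siDux.

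Cpz was listed at 0 except in replicate 2 of siRpl14+siDux (2.59 FPKM) and of siRpl14 (1.80 FPKM). Ms4a10 was above 0 only in siRpl11 (6.71 FPKM), Sct only in replicate 2 of siRpl14+siDux (21.3 FPKM) and Mlana only in replicate 1 of siRpl14+siDux (11.3 FPKM). These 4 genes were listed at 0 in at least 8 of the 10 libraries, and their values there are too few to order the groups.

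**Figure D5:**
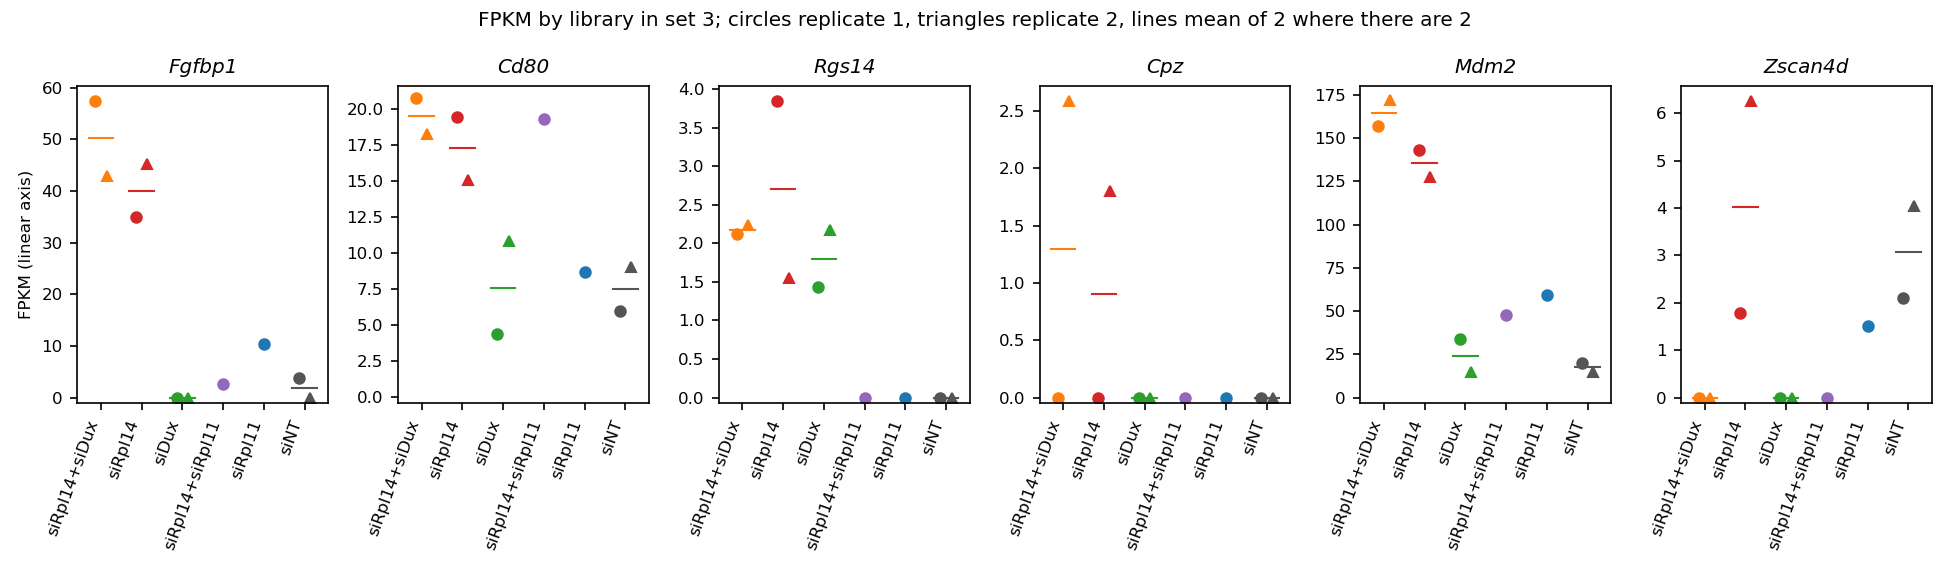
FPKM on a linear axis in each library of set 3 (circles replicate 1, triangles replicate 2, lines the mean of 2) for the 4 of the 7 genes that were tested there, Mdm2 and Zscan4d. Fgfbp1 is at 34.9 to 57.5 FPKM in libraries with siRpl14 and no siRpl11 and at 10.3 FPKM or less in the others, while Zscan4d is listed at 0 in both siRpl14+siDux libraries.

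For siRpl14 against siNT in set 3, none of the 4 genes passed, against 0.66% of 13189 genes; 3 had an unadjusted p under 0.05, as had 1632 genes. The log2 fold change was 4.22 ± 0.70 for Fgfbp1 (limma, adjusted p = 0.0504) and 1.12 ± 0.45 for Cd80 (adjusted p = 0.366). Rgs14 (limma, adjusted p = 0.295) and Cpz (adjusted p = 0.758) were listed at 0 in both siNT libraries, so no fold is given. Fgfbp1 passed under 5 of 16 alternatives.

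In Dux-depleted cells, siRpl14+siDux against siDux, Fgfbp1 rose (limma, adjusted p = 0.023), against 0.326% of all genes higher. No fold is given, since it was listed at 0 in both siDux libraries. This call was lost with a pseudocount of 0.1 and when any library of siRpl14+siDux, siRpl14 or siDux was left out. Cd80 differed by 1.35 ± 0.45 (limma, adjusted p = 0.274), Cpz had an adjusted p of 0.683 and Rgs14 one of 0.953.

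Adding siDux to siRpl14 changed none of the 4 in set 3, against 0.0152% of all genes. The log2 differences and 95% intervals were 0.32 (-1.30 to 1.93) for Fgfbp1, 0.17 (-0.87 to 1.22) for Cd80, 0.18 (-1.64 to 2.00) for Cpz and -0.15 (-1.60 to 1.30) for Rgs14, with limma adjusted p-values of 0.98 or more. None had an unadjusted p under 0.05, as 894 genes had. No 2C-like gene passed here either, although the median of 24 tested was -2.23, so this set could not separate the lists by calls. For siDux against siNT none of the 4 passed (0.00758% of all genes did); 660 genes had an unadjusted p under 0.05, among them Rgs14. A test of whether the siRpl14 change differed with siDux, added after the data were seen, passed for none of the 4 (limma, adjusted p of 0.92 or more).

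By a fixed rule, the 3 genes whose pattern over the 12 libraries of sets 1 and 2 was most like each of the 7 were named, among 11598 genes. They were Lpar6, Fbxw7 and 9230114K14Rik for Fgfbp1 (r = 0.996 to 0.992), Unc45b, Ltb4r2 and Plcd4 for Ms4a10 (r = 0.997 to 0.994), and Cpne2, Apol8 and Plekhg1 for Cpz (r = 0.993 to 0.992). They were Rbm34, Slc25a44 and Ptp4a2 for Cd80 (r = 0.996 to 0.990), and Abcb1b, Prrg4 and Rnf41 for Mlana (r = 0.983 to 0.978). They were Npnt, S100a6 and Mxd4 for Sct (r = 0.991 to 0.987) and Pfkfb4, Man2b1 and Krt7 for Rgs14 (r = 0.992 to 0.990). Of these 21 genes, Fbxw7 alone was in the p53 list and none in the 2C-like list. The likest genes of Sct and Rgs14 were picked over libraries that include those with siRpl11. Their loss with siRpl11 thus follows from the choice and is given as a description only. S100a6 averaged 65.3 FPKM in siRpl14, 19.8 FPKM in siRpl14+siRpl11, 19.3 FPKM in siRpl11 and 22.2 FPKM in siNT. Man2b1 averaged 80.2, 19.5, 15.0 and 18 FPKM in the same groups.

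Most relatives of the 7 genes were too low to be tested, and those tested were mixed. Of 54 genes in 6 family lists, 14 were tested in set 1, where 5 rose and 2 fell with siRpl14, against 18.1% and 13.4% of all genes. Fgfbp3, a relative of Fgfbp1, rose by 1.45 ± 0.20 (limma, adjusted p = 0.00341) and averaged 4.13 FPKM in siRpl14, 0.706 FPKM in siRpl14+siRpl11, 0.546 FPKM in siRpl11 and 0.854 FPKM in siNT. Rgs12, of the same subfamily as Rgs14, rose by 0.97 ± 0.21 (limma, adjusted p = 0.0139), and averaged 18.5, 7.06, 6.78 and 8.79 FPKM in the same groups. Ms4a4d, Cpd and Rgs16 also rose, while the carboxypeptidase genes Cpe and Cpxm1 fell. The relatives of Cd80 that were tested, Icosl and Cd276, did not pass, and no relative of Sct was tested.

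Neighbouring genes also changed less. Of 14 nearest neighbours, 9 were tested with siRpl14 in set 1, where 18.1% of all genes rose and 13.4% fell. Ccdc86 beside Ms4a10, Trmt44 beside Cpz and Timmdc1 beside Cd80 rose, Prom1 beside Fgfbp1 fell, and 5 neighbours did not pass. The log2 fold changes of the 9 ran from -0.45 to 1.22. Fgfbp1 and Cpz both lie on chromosome 5, and Ms4a10 and Mlana on chromosome 19. The genome order was taken from GRCm38.p6, while the values were made on mm9.

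Other markers of the cell types in which Mlana, Cd80 and Rgs14 are best known did not rise as lists in set 1. Few of them could be tested there, and over all genes 18.1% rose and 13.4% fell with siRpl14. Of 9 melanocyte markers, 3 were tested in set 1 and 0 rose with siRpl14; their summed level was 7.83 to 12 FPKM in siRpl14 and 15.1 to 18.5 FPKM in siNT, with Tyr, Tyrp1 and Dct at 0 in both siNT libraries and Oca2 at 0 in both siRpl14 libraries. Of 9 antigen-presenting markers, 4 were tested and 1 rose (H2-Eb1) and 1 fell (H2-Ab1); the sum was 7.2 to 8.03 FPKM in siRpl14 and 7.73 to 8.27 FPKM in siNT, with Ptprc, Cd86 and Itgax at 0 in siRpl14. Of 6 CA2 markers, 3 were tested, 0 rose and 1 fell, with sums of 6.97 to 8.07 FPKM in siRpl14 and 9.51 to 12.3 FPKM in siNT.

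Of 9 enteroendocrine markers, 3 were tested and 1 rose, Neurod1, a transcription factor that regulates secretin in gut cells; it averaged 32.0 FPKM in siRpl14, 15.3 FPKM in siRpl14+siRpl11, 9.68 FPKM in siRpl11 and 4.20 FPKM in siNT. Unlike Sct, it rose with siRpl11 too (1.14, limma adjusted p = 0.0328). The summed level of this list in set 1, Neurod1 included, was 28.53 to 45.08 FPKM in siRpl14 and 8.915 to 12.96 FPKM in siNT. The gut hormone genes Cck and Gcg were at 0 in both siRpl14 libraries. Gcg was also at 0 in both siNT libraries, as were Nts and Tph1 of the same list.

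Of 10 trophectoderm markers, 7 were tested in set 1, where 3 rose with siRpl14, against 18.1% of all genes, and 4 fell with siRpl11 added, against 6.61%. Ascl2 (-0.34 with siRpl14) and Eomes (-0.11) did not pass. Their summed level in set 1 was 57.3 to 85 FPKM in siRpl14, 36.7 to 37.0 FPKM in siRpl14+siRpl11, 38.7 to 40.7 FPKM in siRpl11 and 44.3 to 50.5 FPKM in siNT. In set 2 it was 169 FPKM in siRpl14+siDux, 108 FPKM in siRpl14, 36.0 FPKM in siDux and 36.7 FPKM in siNT. As for Sct and Rgs14, it was highest in the libraries with siRpl14 and no siRpl11, but unlike Sct it was lower in siRpl14+siRpl11 than in siRpl11. Krt7, a keratin on that list that is also among the genes most like Rgs14, rose with siRpl14 by 1.63 ± 0.21 (limma, adjusted p = 0.00284), while Elf5 was at 0 in both set 2 libraries with siRpl14. The part of these markers in the Sct and Rgs14 values was not tested.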

How the data were processed

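The authors deposited FPKM values in 2 tables. STAR, Cuffnorm and the build mm9 are named in the submitters' processing notes. Versions, annotation and strand setting are not given in any source used here. Libraries were stranded mRNA libraries, per the labels' protocols. Whether both tables were normalized together is not stated, so tests stay within a table, and precision cannot be stated from counts.

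Sets 1 and 3 were each fitted over all genes by limma (3.58.1, with statmod 1.5.0, under R 4.3.3; trended, robust moderation) on log2(FPKM + 1), 4 groups of 2 libraries, for genes with 1 FPKM in at least 2 libraries, with Benjamini-Hochberg adjustment at 0.05. Fold changes on this scale understate low genes. Set 2, and the groups of set 3 with 1 library, were not tested. The fits were tested on simulated data.

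The 7 genes and all lists were chosen with earlier results of these data known. Tgm2 was taken off the p53 list (now 43 genes) after an earlier result had shown it among the strongest falls. Of 49 2C-like genes, 38 are in the tables. Neighbours were narrowed to genes present in the tables after these were seen. Named genes are the 7, the siRNA targets, 4 genes from each of the p53 and 2C-like lists, the 3 likest genes, relatives averaging 1 FPKM, and neighbours. Alternatives changed the pseudocount, filter, scaling, moderation and replicate block, or left out a library.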

Additional observations from a re-analysis of the deposited data

How the results depend on the processing

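Over 16 alternatives per result (fewer where a filter dropped the gene), 523 of 570 values kept their direction and their side of the threshold. With siRpl11 against siNT, 5 of the 7 genes passed, but 2 with a pseudocount of 5, and 3 to 5 with a library left out. With siRpl14+siRpl11 against siNT it was 4, and 3 to 5 with a library left out. For siRpl14 against siNT in set 3, 0 passed, and 1 (Fgfbp1) with a pseudocount of 5, a 5 FPKM filter, quantile normalization or median-ratio rescaling; with a library left out it was 0 to 1. For siRpl14+siDux against siDux it was 1, but 0 with a pseudocount of 0.1 and 0 to 1 with a library left out. In the other tested comparisons 0 passed with a library left out. The contrasts of the choice in set 1 were counted by size and not by adjusted p. With a library left out, 6 to 7 genes had a log2 fold change of 1 or more for siRpl14 against siNT. For siRpl14+siRpl11 against siRpl14, 5 to 7 had one of -1 or less. Likeness to the p53 mean over the 2C-like mean held for 7 genes in 12 libraries and 4 in set 1 alone. The lone sample of a reduced group is assumed to vary like the others; the cause of these changes was not tested.

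Among values that had not passed, 13 changed sign. With quantile normalization Rgs14 became 0.038 for siRpl14+siRpl11 against siNT. The others did so when a library was left out: for siRpl14+siRpl11 against siRpl11 the values ran from -0.21 to 1.45 for Fgfbp1, from -0.13 to 0.43 for Cd80 and from -0.040 to 0.29 for Rgs14, and against siNT from -0.20 to 0.13 for Rgs14 and from -0.67 to 0.026 for Sct. In set 3 they ran from -0.56 to 1.10 for Cpz and from -0.61 to 0.31 for Rgs14 for siRpl14+siDux against siRpl14, and from -0.63 to 0.50 for Cd80 for siDux against siNT.

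Replicates share only a number. Deviations of same-numbered libraries correlated across genes at 0.18 to 0.50 among siRpl14, siRpl11 and siNT of set 1, at -0.24 to -0.50 with siRpl14+siRpl11, and at 0.01 to 0.04 in set 3. The replicate block kept the counts: 5 for siRpl11 against siNT, 4 for the combined knockdown against siNT, 0 against siRpl11, and in set 3 0, 0, 0 and 1. A block with the combined numbers crossed, added after the data were seen, gave 6, 5 and 0 in those set 1 comparisons and 7 in each contrast of the choice. Leaving out a library moved the count of all genes called in set 1 widely, for siRpl11 against siNT to 1778 without siRpl11 replicate 2 against 5377 in all, for siRpl14+siRpl11 against siNT to 1307 without combined replicate 1, for siRpl14 against siNT to 752 without siNT replicate 1, and for siRpl14+siRpl11 against siRpl14 to 79 without siRpl14 replicate 2.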
